A study of Mus musculus with 7 samples.

Results

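Glucose uptake and glycolysis were followed in single mouse morulae through 10 genes, chosen by symbol from the count table: the glucose transporter Slc2a1, the hexokinases Hk1 and Hk2, and Gpi1, Pfkl, Aldoa, Pgk1, Eno1, Ldha and Ldhb. All 10 were among the 26586 gene symbols of the table, and all 10 had a mean CPM (the count scaled to a fixed library total) of at least 1 over the embryos, as did 11810 genes in all. The samples were 7 single C57BL/6 morulae, taken 3 days post coitum. Their parents were both L13a-/+, that is, carriers of 1 mutant copy of L13a (symbol Rpl13a), a gene of the large ribosomal subunit. Every embryo shares this parentage, and the labels give no genotype, litter or batch, so the 7 embryos form 1 group, numbered here as replicates 1 to 7, and no groups were compared. Polyadenylated RNA was measured with full-length cDNA amplification, which carries no molecular identifiers, and replicates may differ for technical reasons that p-values cannot separate.

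Glycolysis splits glucose into pyruvate in the cytosol and yields a little ATP without oxygen. Glucose enters through facilitative transporters, hexokinase traps it by phosphorylation, and lactate dehydrogenase converts pyruvate to lactate and back. Cleavage-stage mouse embryos are known to live mainly on pyruvate and lactate, and their use of glucose grows as they compact and approach the blastocyst. The mouse oocyte is known for a lactate dehydrogenase made mostly of B subunits, the product of Ldhb, while A subunits, the product of Ldha, prevail in many glycolytic tissues.

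The libraries differed greatly in depth, and the readings at 0 have to be taken with it. Totals were 1143861, 16452890, 725729, 33123742, 2764409, 139619 and 17122136 counts in replicates 1 to 7. A count of 0 allows up to 3 counts, which equal 2.62, 0.182, 4.13, 0.0906, 1.09, 21.5 and 0.175 CPM in replicates 1 to 7. These limits and the intervals given here cover counting error only. Replicate 6 stands apart as the shallowest library and replicate 5 as one with few genes for its total, 3388 against 5121 in replicate 1. The morula label was checked with 8 pluripotency genes: all 8 had a count in replicate 4, from 2 to 4 in replicates 1, 2, 3, 5 and 7, and none in replicate 6. They summed to 7.87, 313, 838, 1507, 40.2, 0 and 386 CPM in replicates 1 to 7, in replicate 1 from 8 counts of Klf4 and 1 of Klf5. Read against the shares of all genes with a count, given below and 84.0% in replicate 4, these numbers do not establish the label in any replicate. Of 8 trophectoderm markers, 7 had a count in replicate 4, where they summed to 3489.5 CPM, with Krt8 at 1294, Krt18 at 1060.2, Gata3 at 371 and Cdx2 at 105 CPM. In replicates 1, 2, 3, 5, 6 and 7 the list summed to 163, 310.3, 2.76, 280.0, 3065 and 168 CPM, with 1, 5, 1, 1, 1 and 2 markers counted, and Cdx2 was at 0. Oocyte markers summed to 9541, 10949, 11138, 13.5, 609.5, 4226 and 18042 CPM in replicates 1 to 7.

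The 10 genes were read mainly in 3 embryos. Of the 10, 9 had a count in replicate 2, 9 in replicate 4 and 8 in replicate 7. In replicates 1, 3 and 5 there were 4, 3 and 2, and in replicate 6 none. As 1 count in replicate 6 equals 7.16 CPM, all 1749 genes with a count there passed the filter of a mean CPM of 1. The filter thus favours the share of replicate 6 given next. Over all genes with a mean CPM of at least 1, the share with a count was 41.7, 72.1, 29.0, 84.0, 27.7, 14.8 and 69.5% in replicates 1 to 7. The counts of members are read against these shares, and neither followed the total alone: replicate 5 had 2 members from 2764409 counts, while the smaller libraries of replicates 1 and 3 had 4 and 3. No member had a count in all 7 embryos, as did 3.69% of the genes. Aldoa came closest, with a count in 6 embryos.

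**Figure D1:**
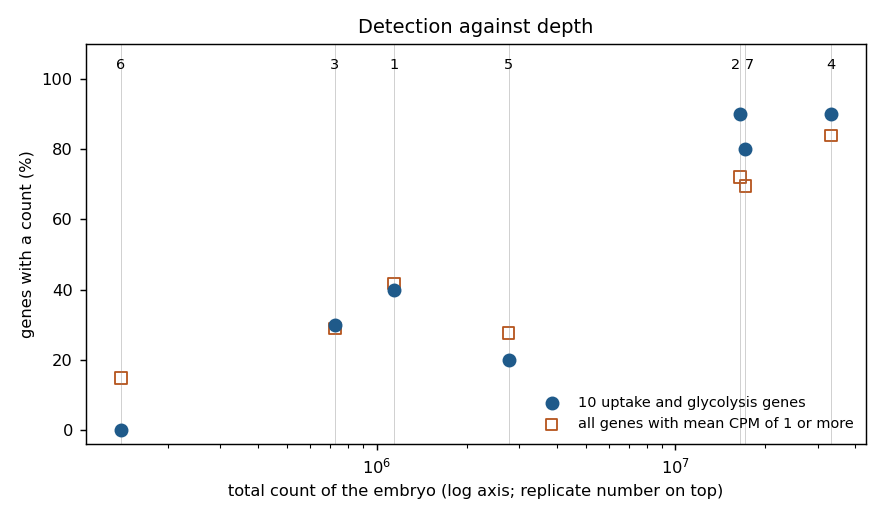
Percentage of genes with at least 1 count (vertical axis) against the total count of each embryo (horizontal log axis), for the 10 uptake and glycolysis genes (filled circles) and all genes averaging at least 1 CPM (open squares). Replicates 2, 4 and 7 have 9, 9 and 8 of the 10 genes, and replicate 6, with 139619 counts, has none.

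Together the 10 genes took a small and very unequal share of each library. Their summed level was 132, 824, 34.4, 1488, 1.09, 0 and 935 CPM in replicates 1 to 7. As a share of all counts this was 0.149% in replicate 4 (95% Clopper-Pearson interval 0.147 to 0.150) and 0.0824% in replicate 2 (0.0810 to 0.0838). In replicate 5 the 10 genes had 3 counts of 2764409, or 0.000109% (2.24e-05 to 0.000317). In replicate 6, 0 counts of 139619 gave an interval of 0 to 0.00264%. The interval of replicate 5 lies below those of replicates 1 and 3, whose smaller libraries held 151 and 25 counts of these genes. Fewer cells of a kind and less RNA per cell cannot be told apart in a whole embryo.

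Slc2a1 encodes GLUT1, the transporter that carries glucose into most cells. Its position is chromosome 4, 119108711 to 119137983 (plus strand, GRCm38, as for all positions here). It had 13.4 CPM in replicate 2, 20.2 CPM in replicate 4 and 25.6 CPM in replicate 7, and a count of 0 in replicates 1, 3, 5 and 6. The 3 embryos with a count lay close together. The level in replicate 7 was 1.92-fold that in replicate 2 (95% counting interval 1.63 to 2.26) and 1.27-fold that in replicate 4 (1.12 to 1.44). With TMM factors replicates 4 and 7 changed places, at 4.80 and 4.74 log2 CPM. In log2 CPM Slc2a1 averaged 0.77 ± 3.54 (SD, n = 7).

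Of the 13 other hexose transporters, 3 had a mean CPM of 1 or more, as had 11810 of all 26586 genes. Slc2a8, an intracellular transporter, had 182 and 127 CPM in replicates 2 and 4 and no count elsewhere. Slc2a3, which encodes the high-affinity GLUT3, was at 65.6, 143 and 10.6 CPM in replicates 2, 4 and 7, so the embryos with Slc2a3 were those with Slc2a1. Slc2a9, a urate transporter, had 55.9 CPM in replicate 2 and 0 elsewhere. The other transporters summed to 308, 271 and 10.6 CPM in replicates 2, 4 and 7 and to 0 in replicates 1, 3, 5 and 6.

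Hk2 and Hk1 encode hexokinases that catalyse the first committed use of glucose, Hk1 being the widespread isoform and Hk2 one of muscle, fat and growing cells. Hk2 (chromosome 6, 82725025 to 82774454, minus strand) was at 59.4, 1.40, 1.38 and 88.7 CPM in replicates 1 to 4, with counts of 68, 23, 1 and 2938, and at 0 in replicates 5, 6 and 7. Hk1 (chromosome 10, 62268855 to 62379908, minus strand) had 544 counts, or 16.4 CPM, in replicate 4, 2 counts in replicate 5 and 0 elsewhere. By CPM both genes were highest in replicate 4, and replicate 1 was high for Hk2 alone. In the authors' quantile-normalized log2 table the order turned: Hk2 stood at 5.0 in replicate 1 and 4.63 in replicate 4, and Hk1 at 3.76 in replicate 5, from its 2 counts, and 1.14 in replicate 4. Hk2 was 63.4-fold higher in replicate 4 than in replicate 2 (42.2 to 100.3) and at least 506-fold higher than in replicate 7. Hk1 was at least 93.7-fold higher in replicate 4 than in replicate 7 and at least 90.1-fold higher than in replicate 2.

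Replicate 7 had no count of the 4 hexokinase genes reported here from 17122136 counts. Hk1, Hk2, Hk3 and Hkdc1 were each at 0 there, so each was under the 0.175 CPM that 3 counts equal, while 11 of the 12 steps from glucose transport to lactate dehydrogenase had counts. Of the hexokinase pair, Hk2 made up 84.4% of 3482 counts in replicate 4 (83.1 to 85.6), all 68 counts in replicate 1 (94.7 to 100%) and all 23 in replicate 2 (85.2 to 100%).

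Gpi1, glucose-6-phosphate isomerase, converts glucose 6-phosphate to fructose 6-phosphate. Its position is chromosome 7, 34201330 to 34230336 on the minus strand. It was at 87.1, 12.4, 146 and 4.15 CPM in replicates 2, 3, 4 and 7 and at 0 in replicates 1, 5 and 6. Replicate 4 exceeded replicate 7 by 35.2-fold (27.8 to 45.1), which was also a deep library. Pfkl, the liver-type phosphofructokinase of the main control step, took another order. On chromosome 10 from 77986947 to 78010083 (minus strand), it was at 10.5, 132, 16.6 and 58.4 CPM in replicates 1, 2, 4 and 7. It was 7.94-fold higher in replicate 2 than in replicate 4 (7.22 to 8.73), so the embryo highest for the step before was not highest for this one. Of the other phosphofructokinases, Pfkm had 17.9 CPM in replicate 7 and no count elsewhere, and Pfkp had 1, 1 and 2 counts in replicates 1, 4 and 7.

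Aldoa encodes aldolase A, which splits fructose 1,6-bisphosphate. It was the member with most counts, 33591 over the embryos, and 90.5% of its summed CPM lay in replicate 4. Its levels were 27.1, 38.9, 20.7, 985, 0.362, 0 and 16.1 CPM in replicates 1 to 7. The 4 embryos between 16.1 and 38.9 CPM lay close together, while replicate 4 was 25.3-fold above replicate 2 (23.4 to 27.4) and replicate 5 had 1 count. The gene lies on chromosome 7 from 126795234 to 126800751 (minus strand). There it overlaps Fam57b on the opposite strand, which had at most 634 counts, and whether the authors counted by strand is not known, so that reads of the pair cannot be told apart. Its retrogenes Aldoart1 and Aldoart2 had no count in any embryo.

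Pgk1 and Eno1 act in the ATP-yielding part of the pathway. Pgk1, phosphoglycerate kinase, on chromosome X from 106187100 to 106203699 (plus strand), was at 7.05, 56.2 and 178 CPM in replicates 2, 4 and 7 and at 0 in the other 4. It was 25.3-fold higher in replicate 7 than in replicate 2 (21 to 30.7) and 3.18-fold higher than in replicate 4 (3.00 to 3.37). Eno1, the widespread enolase, on chromosome 4 from 150236721 to 150248879 (plus strand), was counted in the same 3 embryos at 107, 156 and 94.1 CPM. Its highest reading was 1.66-fold its lowest above 0 (1.57 to 1.76), so Eno1 varied less over the 3 deep libraries than Pgk1. The annotation holds 3 processed copies of Pgk1 (Pgk1-ps1, Pgk1-ps3 and Pgk1-rs7), a copy of Eno1 (Eno1b) and copies of Ldha (Ldha-ps and Ldha-ps2), which were not analysed here. Reads that fit a copy as well as the gene would make these levels uncertain.

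**Figure D2:**
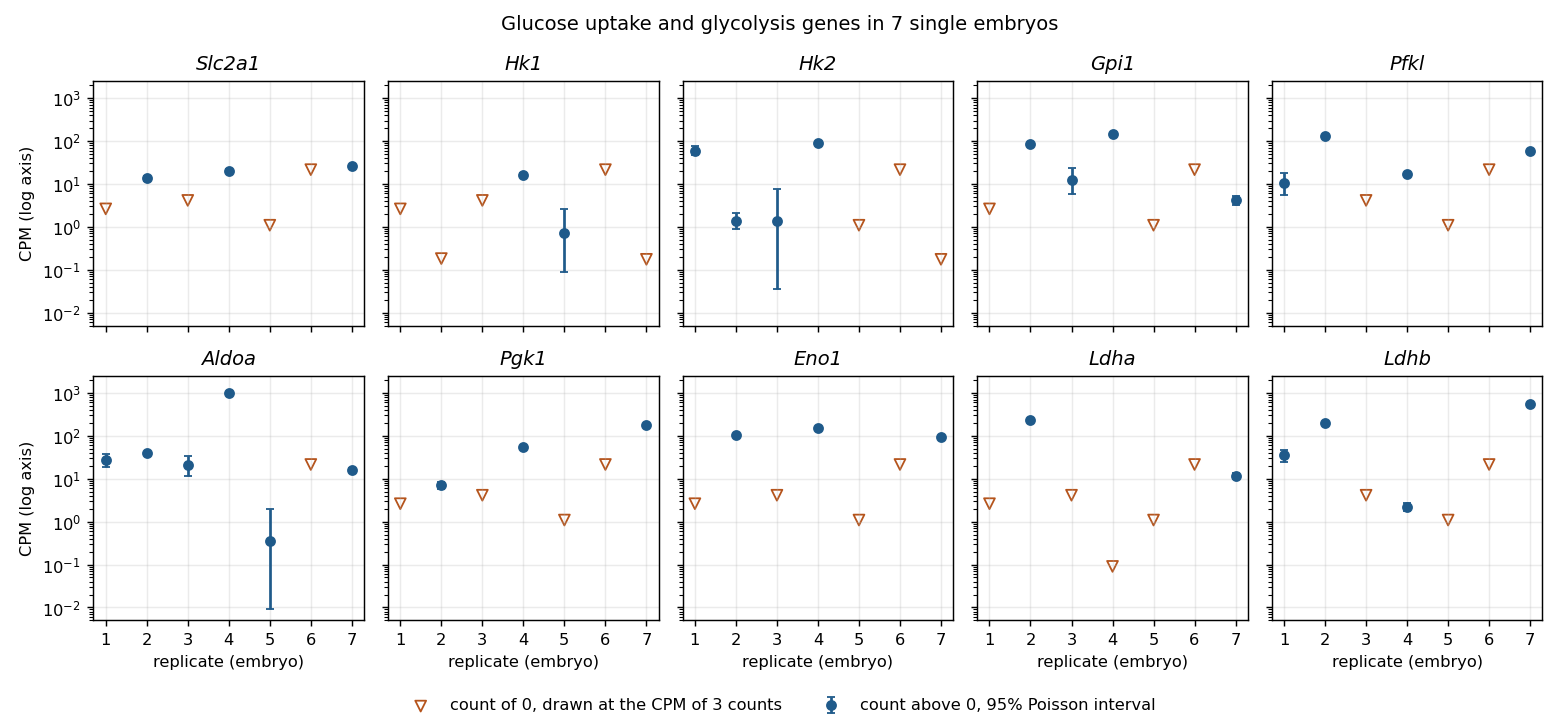
CPM on a log axis (vertical) in replicates 1 to 7 (horizontal), 1 panel per gene. Filled circles are counts above 0 with 95% Poisson intervals, and open triangles mark a count of 0 at the CPM that 3 counts equal. Aldoa reaches 985 CPM in replicate 4, Ldhb 547 CPM in replicate 7, and Ldha has a count of 0 in replicate 4, where the limit is 0.0906 CPM.

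Ldhb and Ldha encode the B and A subunits of lactate dehydrogenase, which mix in tetramers, and the 3 deep libraries differed widely in both. Ldhb (chromosome 6, 142490249 to 142507957, minus strand) was at 35.0, 202, 2.20 and 547 CPM in replicates 1, 2, 4 and 7, with 40, 3325, 73 and 9364 counts. Ldha (chromosome 7, 46841475 to 46855627, plus strand) had 235 and 11.7 CPM in replicates 2 and 7, with 3862 and 200 counts, and at 0 in the other 5 embryos. In replicate 4, the deepest library, Ldha had no count of 33123742. Replicate 2 was therefore at least 2592-fold higher for Ldha than replicate 4, and 20.1-fold higher than replicate 7 (17.4 to 23.3). Ldhb was 248-fold higher in replicate 7 than in replicate 4 (197 to 317). The embryo highest by CPM for Aldoa, Gpi1, Eno1, Hk1 and Hk2 thus had close to no lactate dehydrogenase transcript, 2.20 CPM over all 4 genes of the family measured.

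The stretches before the transcription starts of this pair are shown because the pair was read so unequally over the embryos. They are the 250 bases before 1 RefSeq start of each gene (GRCm38.p6), chr7:46845554-46845803 on the plus strand for Ldha and chr6:142507958-142508207 on the minus strand for Ldhb. Capitals mark the letters ACGTG or its reverse complement CACGT, a form of the core to which hypoxia-inducible factors bind. The other form, GCGTG, was not searched for and is not marked, though the Ldhb stretch holds it. A palindromic CACGTG holds both.
Ldha: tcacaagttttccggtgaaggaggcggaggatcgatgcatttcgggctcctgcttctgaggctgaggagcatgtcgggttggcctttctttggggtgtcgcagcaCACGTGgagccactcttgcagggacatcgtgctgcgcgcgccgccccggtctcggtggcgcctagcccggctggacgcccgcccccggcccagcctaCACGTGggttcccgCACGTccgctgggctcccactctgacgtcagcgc
Ldhb: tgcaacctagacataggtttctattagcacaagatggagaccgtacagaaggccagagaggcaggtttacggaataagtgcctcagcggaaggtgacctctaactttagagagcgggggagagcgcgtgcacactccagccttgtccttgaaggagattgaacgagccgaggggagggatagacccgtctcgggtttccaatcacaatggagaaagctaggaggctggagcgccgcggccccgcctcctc
The Ldha stretch holds 5 matches to the marked letters, 4 of them in a pair of palindromes, and the Ldhb stretch none. Of 32851 such RefSeq stretches, 16.6% hold the marked letters and 6.02% the palindrome, which is also the E-box of MYC and USF factors. Ldha has a second RefSeq start with no such match, though that stretch holds the reverse complement of GCGTG. Slc2a1, Hk2, Pgk1 and, at 2 of its 3 starts, Aldoa also have the marked letters, and Hk1, Gpi1, Pfkl and Eno1 do not. A match is only a run of letters and says nothing of binding in these embryos.

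As a share of the lactate dehydrogenase pair, Ldhb made up 97.9% of 9564 counts in replicate 7 (97.6 to 98.2) and 46.3% of 7187 counts in replicate 2 (45.1 to 47.4). In replicate 1 all 40 counts were Ldhb (91.2 to 100%), and in replicate 4 all 73 (95.1 to 100%). Ldha therefore reached a large share in 1 embryo of the 4 where the pair was counted. Per length of merged exons, which are 1570 bases for Ldhb and 3310 for Ldha, Ldhb made up 64.5% in replicate 2, so that which subunit leads there turns with the scale. Ldhc and Ldhal6b, the testis isoforms, had no count in any embryo. No correlation is given for Ldha with Ldhb or Hk1 with Hk2, because the values fell into separate clusters, with a largest gap of 0.554 of the range for Ldha and 0.663 for Hk1.

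**Figure D3:**
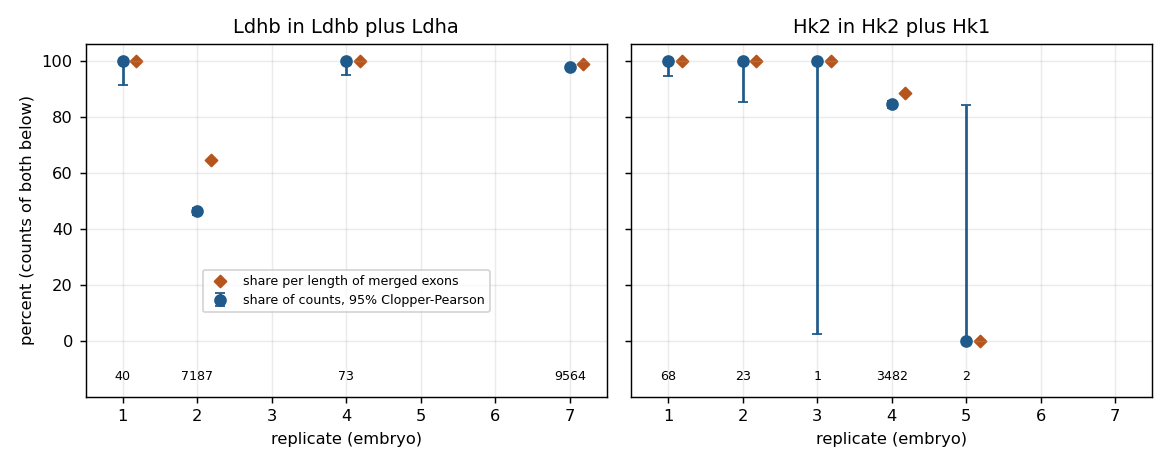
Percentage of Ldhb in Ldhb plus Ldha (left) and of Hk2 in Hk2 plus Hk1 (right) by replicate. Circles are shares of counts with 95% Clopper-Pearson intervals, diamonds are shares per length of merged exons, and the number under each point is the count of both genes; embryos with no count of either have no point. Ldhb is at 97.9% in replicate 7 and 46.3% in replicate 2.

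Some embryos with Ldha also held transcripts typical of oviduct and uterus. The 8 oviduct and uterine epithelium markers summed to 1088, 1524, 0, 49.7, 1.81, 2650.1 and 165 CPM in replicates 1 to 7, with 3, 8, 0, 2, 1, 2 and 5 of them counted. The stroma and muscle list summed to 4734 CPM in replicate 6 and at most 169 CPM elsewhere, and the blood and immune list to 129 CPM in replicate 6 and at most 4.37 CPM elsewhere. The 6 cumulus and granulosa markers, Cyp19a1, Fshr, Amh, Inhba, Ptx3 and Has2, were at 0 in all embryos. The part of these cells in the Ldha readings was not tested. In replicate 1, with 1088 CPM of oviduct markers, Ldha was at 0 with a limit of 2.62 CPM, and in replicate 6 at 0 with a limit of 21.5 CPM.

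Genes of like pattern in log2 CPM over the 7 embryos are named as a description, since the points share libraries and readings of 0. For Ldha, whose values fell into clusters, no r is given. Among the genes closest to it, Myrip, Mmp7 and Epha6 had counts in replicates 2 and 7 only, the same embryos as Ldha. They had 907, 2906 and 959 counts in replicate 2, and 83, 156 and 100 in replicate 7. For Ldhb the closest were Zp3, a zona pellucida protein of the oocyte (r 0.9933), Kctd18 (0.9905) and Zfp57, a maternal guardian of imprints (0.9893). Zp3 was at 19.2, 138, 3.56 and 166 CPM in replicates 1, 2, 4 and 7. The oocyte list as a whole did not follow Ldhb. In replicate 3 it summed to 11138 CPM, with 8 of its 12 markers counted, while Ldhb and Zp3 were at 0 with a limit of 4.13 CPM. Aldoa was most like E230008O15Rik (0.9785) and the nucleolar methyltransferase Fbl (0.9772).

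Per length of merged exons, the order of the members differed from embryo to embryo. In replicate 4 Aldoa led with 338 CPM per kb, ahead of Eno1 with 29.1, Pgk1 with 25.1 and Gpi1 with 22.6, and Ldhb and Ldha came last with 1.40 and 0. In replicate 7 Ldhb led with 348 CPM per kb and Pgk1 followed with 79.5, while Aldoa stood sixth with 5.54. In replicate 2 Ldhb led with 129 CPM per kb, and Ldha followed with 70.9. Eno1 and Pfkl there, at 19.9 and 19.8 CPM per kb, did not differ beyond counting error, nor did Gpi1 and Aldoa at 13.5 and 13.4, or Slc2a1 and Pgk1 at 3.81 and 3.14. Lengths come from GENCODE M21 and may differ from those of the annotation the authors counted with.

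The highest CPM fell in replicate 4 for 5 members (Hk1, Hk2, Gpi1, Aldoa and Eno1), in replicate 7 for 3 (Slc2a1, Pgk1 and Ldhb) and in replicate 2 for 2 (Pfkl and Ldha). Slc2a1 was highest in replicate 4 once TMM factors were applied, and Hk1 and Hk2 were not highest there in the authors' log2 table. Replicate 4 was also the embryo with most trophectoderm markers, whose part in these peaks was not tested. Over all genes averaging at least 1 CPM, 29.6% peaked in replicate 4, 19.2% in replicate 7 and 18.6% in replicate 2. Neighbouring steps therefore did not all peak in 1 embryo: Gpi1 was highest in replicate 4, Pfkl in replicate 2 and Aldoa in replicate 4 again.

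With the isoforms and enzymes outside the 10, a count was found for 12 of 12 steps from glucose transport to lactate dehydrogenase in replicates 2 and 4, 11 in replicate 7, 5 in replicates 1 and 3, 3 in replicate 5 and 2 in replicate 6. All steps together had 2222 CPM in replicate 2, 2328 CPM in replicate 4 and 1226 CPM in replicate 7. Replicate 5 had 4 counts over all 12 steps, 2 of Hk1, 1 of Aldoa and 1 of Pgam1, and no step reached 3 counts. Replicate 6 had 54 counts of Pgam1, phosphoglycerate mutase (387 CPM), and 6 of Gapdh (43.0 CPM), and none of the other steps. Pkm, pyruvate kinase, listed under its older symbol, was at 98.8, 681, 12.4, 249 and 121 CPM in replicates 1, 2, 3, 4 and 7. Tpi1, triosephosphate isomerase, was at 284, 38.6, 59.6 and 98.5 CPM in replicates 2, 3, 4 and 7. Gapdh, glyceraldehyde-3-phosphate dehydrogenase, whose many processed copies may share its reads, stayed at or below 60.5 CPM.

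**Figure D4:**
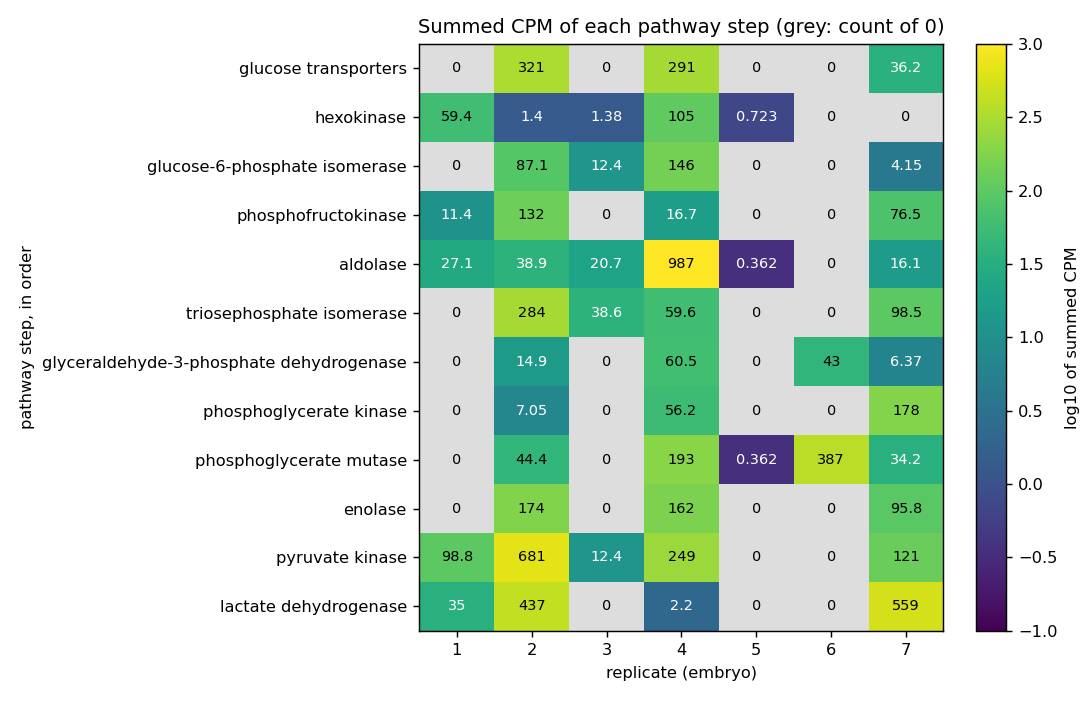
Summed CPM of the genes of each step (rows, in pathway order) in replicates 1 to 7 (columns), coloured by its log10, with grey for a count of 0. Replicates 2 and 4 have a value in all 12 steps, replicate 7 has 0 for the 4 hexokinase genes, and replicate 5 has no step above 0.723 CPM.

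The other enzymes and isoforms of glycolysis had 23 of 24 genes in the table and 10 with a mean CPM of 1 or more, and 8 had no count in any embryo. As background, 11810 of all 26586 genes had a mean CPM of 1 or more, and 14964 had any count. Bpgm, which makes the 2,3-bisphosphoglycerate of red cells, had the highest mean, with 615, 217, 6.10 and 508 CPM in replicates 1, 2, 4 and 7. Regulators of flux were counted for 8 of 11 genes at a mean CPM of 1 or more. Pdk1, the kinase that switches off pyruvate dehydrogenase, was at 113, 7.90, 2.76, 0, 409.9, 0 and 51.6 CPM in replicates 1 to 7, highest in the embryo with 3 counts of the 10 genes. Hif1a, the hypoxia-inducible subunit, was at 293 CPM in replicate 2 and at most 24.5 CPM elsewhere. Tigar, a fructose bisphosphatase induced by p53, was at 45.5, 302, 0, 319.7, 13.4, 50.1 and 8.29 CPM in replicates 1 to 7.

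Genes of pyruvate entry into mitochondria were counted in replicate 5, which had close to no glycolysis reads. Of 12 genes of monocarboxylate transport and pyruvate entry, 6 had a count in replicate 5, beside 27.7% of all genes averaging at least 1 CPM. They summed to 1214 CPM there, against 1.09 CPM for the 10 uptake and glycolysis genes. Mpc2, a subunit of the mitochondrial pyruvate carrier, reached 649 CPM in replicate 5, and Pdhb, a subunit of pyruvate dehydrogenase, 535 CPM. Mpc1, the other carrier subunit, had no count there and 852 CPM in replicate 6, from 119 counts. Bsg (basigin), the partner protein of the lactate transporters, followed Aldoa in peaking in replicate 4, at 819 CPM. Slc16a1, the lactate and pyruvate transporter MCT1, was at 25.1, 24.2 and 5.06 CPM in replicates 2, 4 and 5.

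No member was called as varying between embryos beyond genes of like abundance by the edgeR quasi-likelihood dispersion test (one-sided, adjusted over all genes). The common dispersion, the spread that genes share, was very large at 9.03. With no gene called at all, the result does not show that the members were steady. Of 11810 genes 0 passed (0%), 63 had an unadjusted p under 0.05, none of them members, and DESeq2 called 0 dispersion outliers. The adjusted p was 0.871 for each of the 10. The SD of log2 CPM ran from 2.48 for Hk1 to 4.93 for Eno1, with a median of 4.11, beside a median of 3.63 over all genes tested. Eno1 and Ldhb, with 4.90, had a larger SD than 93.4 and 92.8% of the genes. Eno1 had counts of 0 in replicates 1, 3, 5 and 6, the shallower libraries, which stand at -2.07 log2 CPM. Their limits of 2.62, 4.13, 1.09 and 21.5 CPM lay below its lowest reading above 0, 94.1 CPM in replicate 7. The cause of these counts of 0 was not tested. In replicates 2, 4 and 7 Eno1 was at 7.06, 7.74 and 6.61 log2 CPM. Ldhb was at the same floor in replicates 3, 5 and 6. In the lists of related genes (other glycolytic enzymes, hexose transporters, regulators, pyruvate entry, pentose phosphate and tricarboxylic acid cycle) 0 genes passed either test.

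The cross carries a mutation of Rpl13a, so each gene was also fitted against the log2 CPM of Rpl13a, used as a number and not to form groups. Rpl13a was at 86.5, 119, 5.51, 530.1, 3.26, 7.16 and 23.5 CPM in replicates 1 to 7. These levels come from 99, 1954, 4, 17558, 9, 1 and 403 counts. In replicates 3, 5 and 6 the covariate thus rests on few counts, in replicate 6 on fewer than the 3 that equal 21.5 CPM. The slopes and their SE do not carry this counting error. By the edgeR quasi-likelihood test 0 of 11809 genes passed in either direction (0% each), and 2365 had an unadjusted p under 0.05. Aldoa had the lowest p of the members, with a slope of 0.99 ± 0.47 (SE) log2 units per log2 unit of Rpl13a and an adjusted p of 0.205. Ldha had the steepest fitted slope, 1.90 ± 1.0 (adjusted p 0.264), although it was at 0 in the embryo highest for Rpl13a, and without replicate 2 the slope was 0.33. All 10 slopes were positive, as were 76.1% of those of all genes, with a median of 0.96 over the members and 0.73 over the genes. The members' adjusted p ran from 0.205 to 0.800. With DESeq2, 446 genes passed (3.78%), and without replicate 7, 1726 did with edgeR (15.4%), with 0 of the 10 members in either case.

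**Figure D5:**
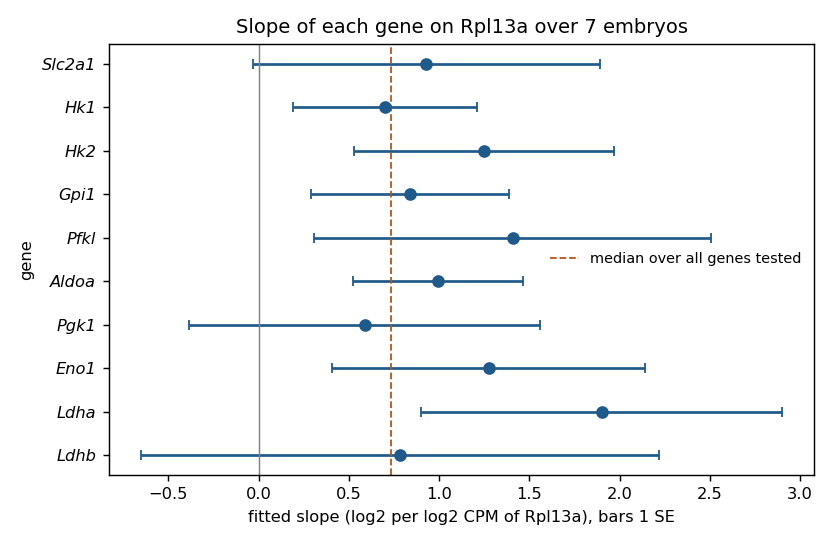
Fitted slope of each gene on Rpl13a (horizontal axis, log2 units per log2 CPM of Rpl13a) over 7 embryos, with bars of 1 SE; the dashed line is the median over all genes tested, 0.73. Every gene lies above 0, and the bars of Slc2a1, Pgk1 and Ldhb cross 0.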

How the data were processed

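Single-embryo RNA sequencing of 7 morulae was used. Per the submitters' processing notes, the authors used HISAT2 2.0.5, featureCounts 1.5.0-p2 (Subread), limma and build GRCm38; settings, annotation and strand are not stated there. Raw counts per symbol make up the deposited count table. The deposited log2 table held the same end values in all columns, -2.65 and 15.67, which log2 CPM with an offset of 0.5 followed by quantile normalization gave again. All columns were used.

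CPM are counts over the library total. Log2 CPM used TMM factors (0.731 to 1.68) and a prior count of 2 in edgeR 4.0.16 (R 4.3.3). Genes averaging at least 1 CPM were tested, with Benjamini-Hochberg adjustment over all of them at 0.05. Both tests were also run on simulated data. The outcome is not given here, so their power at the dispersion of these embryos is not stated. The SE of a slope is the slope over the square root of F. Intervals are exact Poisson, or Clopper-Pearson for shares and for folds between embryos. Correlations were to be withheld where the largest gap exceeded 0.5 of the range. Alternatives used DESeq2 1.42.0, limma 3.58.1, other scalings, filters and prior counts, and each embryo left out. Lists, members and tests were chosen with earlier results of these data known, and the 12 pathway steps and the folds printed after seeing values. Named genes were the members, genes of high mean CPM in each list, the most alike genes, and copies or overlapping genes. Positions and lengths come from GENCODE M21, where Aldoa has 2 gene IDs and the one with most transcripts was taken. Promoters come from RefSeq GRCm38.p6, which had all 10 members. A gene of the pathway lists is not reported here and is left out of the list and step sums.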

Additional observations from a re-analysis of the deposited data

Results flagged for a closer look

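Hk1 was flagged because replicate 4, at 4.51 log2 CPM, lay far above the other 6 embryos: the gap to the next embryo was 0.663 of the range, above the Dixon value of 0.568 for 7 samples. The largest gap was 0.535 with DESeq2 size factors and 0.537 with a prior count of 0.5, both under that value, and in the authors' log2 table replicate 5 was highest instead. Its 544 counts there stand against 2 in replicate 5 and 0 elsewhere. Each of the 10 genes and their summed CPM was examined this way. Chance flags about 1 in 20 groups of normally spread values. That rate need not hold here, since most embryos share the floor value of a count of 0 for Hk1.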

How the results depend on the processing

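The count of 0 members past the test of spread, and of 0 past the slope on Rpl13a, held under every alternative run: other scaling, other filters, each gene's own prior degrees of freedom (spread only), the authors' log2 table with limma, DESeq2, and each embryo left out. Over all genes the slope test called 0, but 446 with DESeq2, 3 without replicate 5 and 1726 without replicate 7. All member slopes were positive in every edgeR fit, with 8 tested at a mean CPM of 10 or more and 9 without replicate 4. The members' median SD ran from 3.55 to 5.09; single values moved most for Hk1 without replicate 4 (0.736 against 2.48), Ldha without replicate 2 (2.26 against 4.11) and Slc2a1 in the authors' table (2.25 against 3.54). Per length of merged exons, the Ldhb share was 64.5% in replicate 2 and 99.0% in replicate 7, and the Hk2 share 88.5% in replicate 4. The number of members with a count in all embryos was 0 to 1 when each embryo was left out, with 1 (Aldoa) without replicate 6. The gap rule withheld both correlations under both other scalings, both other prior counts and in the authors' log2 table; they were not run with an embryo left out. No paired analysis was possible because the labels give 1 group. Depth limits what replicates 1, 3, 5 and 6 can show.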

Other observations

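Pathways that branch from glycolysis or take up its products were read in the same libraries. In the pentose phosphate pathway, which makes NADPH and ribose, G6pdx, the enzyme of its first step, was at 528, 181, 1097, 42.0, 41.6, 0 and 436 CPM in replicates 1 to 7. It was highest in replicate 3, where the 10 uptake and glycolysis genes had 25 counts, and low in replicate 4, where they were highest. Taldo1 (transaldolase) and Pgd (6-phosphogluconate dehydrogenase) peaked in replicate 4 instead, at 560.1 and 354 CPM. The 8 genes of the pathway summed to 614, 606, 1119, 1139, 155, 415 and 786 CPM in replicates 1 to 7.

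All 16 genes of the tricarboxylic acid cycle had a count in replicate 4, 14 in replicate 7, 12 in replicate 2, and 7, 3, 2 and 3 in replicates 1, 3, 5 and 6. Over all genes averaging at least 1 CPM the share was 84.0, 69.5, 72.1, 41.7, 29.0, 27.7 and 14.8% in that order. The 16 genes summed to 1295, 721, 543, 3783, 18.4, 3029.7 and 847 CPM in replicates 1 to 7, highest in replicate 4 like the 10 uptake and glycolysis genes. Cs, citrate synthase, was at 172, 219, 401, 398, 0, 7.16 and 406 CPM in replicates 1 to 7. Idh3g, a subunit of isocitrate dehydrogenase, and Sdhb, of succinate dehydrogenase, were highest in replicate 6, at 1977 and 1046 CPM, the embryo with no count of the 10 genes. None of these genes passed either test.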
